A study of Homo sapiens with 4 samples.

Results

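The nuclear-encoded subunits of the respiratory chain were taken as the protein-coding genes outside the mitochondrial chromosome whose symbols name a subunit of complexes I to V: NDUFA, NDUFB, NDUFC, NDUFS or NDUFV followed by a digit, SDHA to SDHD, UQCR, COX4 to COX8, or ATP5. The rule found 90 of the 58735 genes counted and used no measured value. By symbol, 36 genes were placed in complex I, 4 in complex II, 9 in complex III, 19 in complex IV and 20 in complex V, and 2 were readthrough genes, which join a subunit gene to its neighbour. A member was tested where some library held 10 reads or more of it, which 83 members did. The other 7 were under that level in every library and are described with their complexes.

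By the labels, the RNA of all 4 libraries came from MHCC-97H cells, an established line of metastatic hepatocellular carcinoma (HCC), of wild-type genotype and given each agent for 24 h. One culture received PBS. The others received 2 μg of migrasomes (Migs), vesicles that migrating cells leave behind on their retraction fibres, which came from the same line in normoxia (normo-Migs), from that line kept in hypoxia (hypo-Migs) or from hypoxic donors that lacked CD147 (CD147KO-Migs). The knockout was thus in the cells that gave the Migs and not in the cells sequenced, and oxygen differed only for the donor cells. Each condition had 1 library, so no difference could be set against the spread between cultures, and every test compares the reads of a pair of libraries and not conditions.

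The respiratory chain of the inner mitochondrial membrane passes electrons from NADH, through complex I, and from succinate, through complex II, to ubiquinone, then through complex III and cytochrome c to oxygen at complex IV. Complexes I, III and IV pump protons, and complex V, the ATP synthase, lets them back and makes ATP. Complex II is built from nuclear genes alone, whereas the other complexes also hold subunits made from mitochondrial DNA, so their assembly draws on both genomes. Several subunits of complex IV exist in forms that belong to particular tissues or respond to oxygen.

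Reads on genes numbered between 33882496 and 40285223 per library, and the members took 0.784% of them with PBS, against 0.960% to 0.972% in the libraries given Migs. The library labelled PBS stood apart from the others: 251 genes, none of them a member, had 3 reads or fewer there and at least 100 in each Mig library, and the same count was 0 for each other library. Whole chromosomes also differed from it, as described with the neighbouring genes. Whether the library labelled PBS came from the same stock of cells as the others was not tested, and a difference between stocks cannot be told apart from one between PBS and Migs in any comparison with it. Of 16 hepatocyte and HCC markers, 7 (ALB, AFP, APOA1, APOB, APOC3, TTR and GPC3) had 3 reads or fewer in every library, whereas KRT8 and KRT18 carried most of the summed level, in reads per 1000000 reads on genes (CPM). FGB, a fibrinogen chain, had 0 reads with PBS and 561 to 832 in the Mig libraries. Marker sums moved with the contrast to PBS. The hepatocyte and HCC sum was 4205 CPM with PBS and 5490 to 6608 with Migs, and the sum of 10 fibroblast and mesenchymal markers was 314 with PBS and 481 to 501 with Migs. The sums of 7 immune markers (0.71 against 2.81 to 4.45) and of 7 cardiac and skeletal muscle markers (4.78 against 8.59 to 10.8) were also lowest with PBS, and that of 7 endothelial markers was highest there (10.7 against 7.47 to 8.56). The part of these differences in the members' values was not tested. In these lists, COL1A2, PDGFRA, KDR, TIE1, PTPRC, CD3E, MYH6, MYH7, CKM and TNNT2 were at 3 reads or fewer throughout. BSG, the gene of CD147, had 48157, 34051, 37109 and 34021 reads in the recipient cells and cannot check a knockout made in the donor cells. Comparisons with the library labelled PBS share that library, and the part of its other differences in the results was not tested, so the pairs of Mig libraries are given beside them as values without it.

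Some members are near-identical copies, shown here because their reads are hard to tell apart. Complex III holds the hinge protein UQCRH, which helps cytochrome c to dock, and the genome also holds UQCRHL, a near-identical intronless copy. Their coding sequences in GENCODE release 29 were 276 bases each, 272 of them identical (98.6%), and the 4 differing bases are in capitals.
UQCRH: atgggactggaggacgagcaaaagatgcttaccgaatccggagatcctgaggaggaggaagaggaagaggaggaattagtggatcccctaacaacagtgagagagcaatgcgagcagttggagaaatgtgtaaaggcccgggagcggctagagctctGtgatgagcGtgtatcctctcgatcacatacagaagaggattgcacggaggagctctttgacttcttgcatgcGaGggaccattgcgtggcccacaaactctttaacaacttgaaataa
UQCRHL: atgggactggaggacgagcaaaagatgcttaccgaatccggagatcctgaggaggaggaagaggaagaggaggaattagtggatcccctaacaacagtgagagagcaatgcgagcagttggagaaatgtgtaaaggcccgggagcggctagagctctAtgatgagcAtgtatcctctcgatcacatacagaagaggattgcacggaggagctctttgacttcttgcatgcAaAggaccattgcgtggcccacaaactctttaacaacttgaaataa
UQCRH lies on chromosome 1 (GRCh38, 46303631 to 46316776, plus strand) and UQCRHL on the same chromosome (15807169 to 15809348, minus strand). UQCRH had 5251, 8356, 9520 and 8453 reads and UQCRHL had 108, 149, 215 and 196 in the order PBS, normo-Migs, hypo-Migs and CD147KO-Migs, an order kept below wherever 4 values follow each other. UQCRHL thus took 2.02% (1.66% to 2.43%, exact binomial 95% interval), 1.75%, 2.21% and 2.27% of the reads of both, and how reads that match both were assigned is not given in the sources used here. Its values are therefore uncertain.

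The c ring of complex V, the rotor that protons turn, is made of a single mature protein encoded by 3 genes, ATP5MC1, ATP5MC2 and ATP5MC3, whose import peptides differ. The last 76 codons of the 3 genes are shown because they encode the same 75 residues in bases that differ. Capitals mark the 53 of 228 positions at which the genes are not all alike.
ATP5MC1: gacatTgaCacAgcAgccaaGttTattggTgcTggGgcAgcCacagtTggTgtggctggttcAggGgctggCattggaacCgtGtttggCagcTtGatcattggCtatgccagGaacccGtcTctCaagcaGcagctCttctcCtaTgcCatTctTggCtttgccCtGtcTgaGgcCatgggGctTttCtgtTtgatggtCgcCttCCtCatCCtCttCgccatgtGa
ATP5MC2: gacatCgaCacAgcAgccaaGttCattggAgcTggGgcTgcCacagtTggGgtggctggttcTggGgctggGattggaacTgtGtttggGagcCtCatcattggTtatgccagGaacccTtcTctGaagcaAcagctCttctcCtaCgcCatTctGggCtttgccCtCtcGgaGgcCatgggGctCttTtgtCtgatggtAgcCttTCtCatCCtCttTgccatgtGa
ATP5MC3: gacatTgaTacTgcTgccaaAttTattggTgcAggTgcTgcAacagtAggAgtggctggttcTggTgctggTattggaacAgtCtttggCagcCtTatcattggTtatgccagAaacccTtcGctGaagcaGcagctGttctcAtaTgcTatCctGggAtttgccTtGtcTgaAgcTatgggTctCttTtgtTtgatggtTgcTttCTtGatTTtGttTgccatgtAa
Over this stretch 203 of 228 bases were identical between ATP5MC1 and ATP5MC2, and 185 for either against ATP5MC3. ATP5MC1 had 4134, 5608, 5911 and 5581 reads, ATP5MC2 had 5511, 7232, 8421 and 7443, and ATP5MC3 had 6104, 9076, 9992 and 8935. All 3 genes were lowest with PBS, and their log2 fold changes against it were between 0.30 and 0.59. By FPKM, which divides reads by gene length and library size, ATP5MC1 supplied 40.9%, 40.5%, 38.7% and 40.1% of the family and ATP5MC3 supplied 23.3%, 25.3%, 25.2% and 24.8%. The summed level of the family was 112 FPKM with PBS and between 144 and 154 with Migs.

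RefSeq promoters of GRCh38.p14, 250 bases before to 50 after the start of a gene, could be matched to 70 members. They were searched on both strands for the cores of factors known to act on respiratory genes. The core of nuclear respiratory factor 1, GCGCATGC, was found in 13 (18.6%, against 3.27% of 27305 promoters), and the ETS/GABP core, CCGGAAGT, in 10 (14.3%, against 4.44%). The core of estrogen-related receptors, AAGGTCA, was found in 9 (12.9%, against 3.97%), and that of YY1, AAGATGGC, in 11 (15.7%, against 3.03%). None of these letter strings contains another. Matches describe these windows and do not show binding. In the tested members with a matched promoter, the median log2 fold change of hypo-Migs against PBS was 0.35 in the 31 with any of the 4 cores and 0.35 in the 35 with none. By core, it was 0.35 in the 13 with the nuclear respiratory factor 1 core and 0.35 in the 53 without it. For ETS/GABP it was 0.38 in 10 with the core and 0.35 in 56 without. For estrogen-related receptors it was 0.17 in 9 and 0.36 in 57, and for YY1 -0.01 in 11 and 0.36 in 55. These sets are small, some members hold several cores, and whether a core bears on the values was not tested.

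Promoters of 3 members that were over 2-fold higher in every Mig library (ATP5MD, ATP5F1E and COX7A2L), of COX5B, which holds the most ETS/GABP cores, and of NDUFB4, which was lower in every Mig library, are shown with the matched letters in capitals.
ATP5MD, chr10:103396426-103396725, minus strand: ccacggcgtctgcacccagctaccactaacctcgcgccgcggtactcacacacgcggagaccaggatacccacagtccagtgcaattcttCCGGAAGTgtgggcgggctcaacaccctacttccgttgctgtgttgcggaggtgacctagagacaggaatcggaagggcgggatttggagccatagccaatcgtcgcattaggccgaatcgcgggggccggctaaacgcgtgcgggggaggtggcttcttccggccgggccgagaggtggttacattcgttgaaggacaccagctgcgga
ATP5F1E, chr20:59032286-59032585, minus strand: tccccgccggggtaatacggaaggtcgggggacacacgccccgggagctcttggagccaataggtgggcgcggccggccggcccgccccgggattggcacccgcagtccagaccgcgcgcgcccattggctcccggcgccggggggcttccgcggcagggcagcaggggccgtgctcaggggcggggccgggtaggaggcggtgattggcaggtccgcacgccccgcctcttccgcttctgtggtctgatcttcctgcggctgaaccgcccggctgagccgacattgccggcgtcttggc
COX7A2L, chr2:42361168-42361467, minus strand: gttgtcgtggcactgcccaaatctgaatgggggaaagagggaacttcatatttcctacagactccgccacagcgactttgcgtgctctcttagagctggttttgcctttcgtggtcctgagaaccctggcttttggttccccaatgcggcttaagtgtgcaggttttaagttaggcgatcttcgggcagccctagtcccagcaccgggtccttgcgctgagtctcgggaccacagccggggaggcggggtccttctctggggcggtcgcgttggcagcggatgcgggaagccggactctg
COX5B, chr2:97645812-97646111, plus strand: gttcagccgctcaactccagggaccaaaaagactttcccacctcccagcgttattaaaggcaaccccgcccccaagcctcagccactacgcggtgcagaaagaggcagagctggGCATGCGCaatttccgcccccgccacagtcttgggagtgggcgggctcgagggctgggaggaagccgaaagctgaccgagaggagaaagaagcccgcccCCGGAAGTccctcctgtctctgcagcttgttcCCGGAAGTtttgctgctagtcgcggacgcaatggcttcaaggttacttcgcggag
NDUFB4, chr3:120596086-120596385, plus strand: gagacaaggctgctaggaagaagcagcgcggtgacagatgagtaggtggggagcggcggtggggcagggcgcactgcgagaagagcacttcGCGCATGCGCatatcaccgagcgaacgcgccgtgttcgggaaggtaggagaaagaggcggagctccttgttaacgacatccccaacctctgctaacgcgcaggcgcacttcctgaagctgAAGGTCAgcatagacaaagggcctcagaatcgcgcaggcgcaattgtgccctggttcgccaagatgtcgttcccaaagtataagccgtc
The ATP5MD window held 1 ETS/GABP core, the COX5B window 2 and a nuclear respiratory factor 1 core, and the NDUFB4 window nuclear respiratory factor 1 cores on both strands that overlap each other, with an estrogen-related receptor core downstream. No core was found in the ATP5F1E and COX7A2L windows.

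Levels differed far more between subunits of a complex than between libraries. On the FPKM scale, the mean over the 4 libraries ran from 0.271 to 317 in complex I, from 10.2 to 61.7 in complex II, from 2.10 to 154 in complex III, from 0.149 to 105 in complex IV and from 1.39 to 529 in complex V among tested members. ATP5F1B, the catalytic beta subunit of complex V, was the highest member at 453, 569, 552 and 543 FPKM. The highest of complex I was NDUFS5, an accessory subunit, at 287, 337, 319 and 323 FPKM, and the highest of complex II was SDHA, the flavoprotein that oxidises succinate, at 45.7, 67.6, 66.1 and 67.4. UQCRH led complex III at 108, 173, 167 and 170 FPKM, and COX5A had the highest mean of complex IV, at 90.5, 111, 113 and 104. COX8A, at 77.0, 115, 101 and 120 FPKM, was above COX5A with normo-Migs and CD147KO-Migs, and COX6B1, at 88.0, 104, 106 and 110, with CD147KO-Migs. The median member of complex I lay at 14.8 FPKM with PBS and at 17.1 to 18.0 with Migs, below the medians of the other complexes in every library. FPKM here divides by the union of all annotated exons of a gene, which was 548 bases for NDUFS5 and 12268 for NDUFS1. Ranks and spread within a complex, and medians between complexes, thus depend in part on annotated length.

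**Figure D1:**
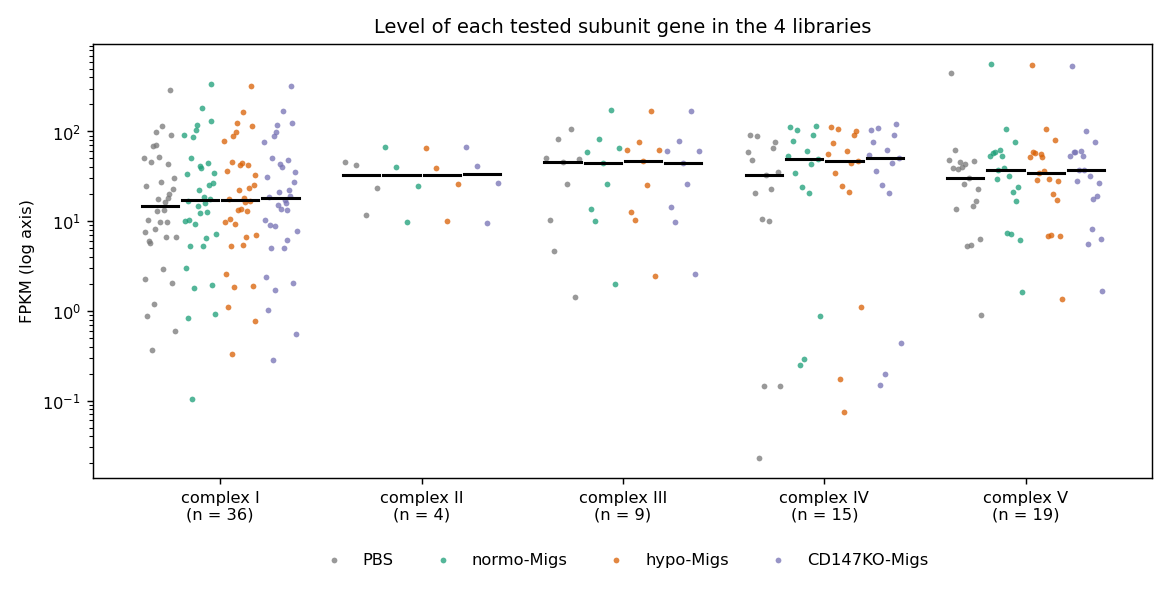
FPKM (log axis) of the 83 tested members in each library, by complex, each point a gene and each bar the median of the points. The spread within a complex is wide beside the shift between libraries, and the medians of complex IV were 32.3 with PBS and 46.5 to 50.02 with Migs.

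Low values were in part those of genes that share bases with another annotated gene. Over 10% of the exon bases were shared with another gene for 36 members, and the tested ones among them had a median of 15.9 FPKM against 44.6 for the 50 others. NDUFV2, a core subunit of complex I that carries an iron-sulphur cluster, had only 56, 87, 84 and 53 reads, and shared 28.4% of its exon bases on the same strand with AP005263.1, which had 0 reads in every library. A named pseudogene of NDUFV2 had 66, 70, 55 and 37 reads, so that the gene's own values are uncertain. NDUFA7 had 18, 5, 19 and 14 reads with 33.5% shared, NDUFA13 had 82, 77, 122 and 97 with 21.0% shared, and ATP5ME had 172, 237, 258 and 183 with 61.6% shared. The strand setting and the handling of reads that fall on more than 1 gene are not given in the sources used here, so these counts may not be all reads of the transcripts, and their order within the complex cannot be read.

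Against the library labelled PBS, most members were higher in each Mig library, and the shift was modest. In the normo-Migs library, 62 of the 83 tested members were higher beyond counting error (adjusted p of 0.05 or less, edgeR's exact binomial test over all 19895 genes tested), against 37.0% of all genes, and 6 were lower, against 32.7%. With hypo-Migs, 58 were higher (37.7% of all genes) and 9 lower (33.6%), and with CD147KO-Migs, 59 were higher (36.5%) and 5 lower (33.4%). In percent of members these were 74.7, 69.9 and 71.1 higher and 7.2, 10.8 and 6.0 lower. The median log2 fold change was 0.41, 0.35 and 0.33 in the same order, beside 0.03, 0.04 and 0.03 over all genes tested. The library labelled PBS was the lowest of the 4 for 60 members, against 42.7% of genes tested, and the highest for 11, against 39.3%. In 53 members the value was higher beyond counting error in each comparison with PBS, and in 3 (NDUFB4, SDHC and COX4I1) it was lower in each.

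In bulk RNA, fewer cells of a type and less RNA per cell cannot be told apart. The number of members that differed 2-fold depended on the scale. The study's criteria (adjusted p no higher than 0.05 with a change of 2-fold or more) were met by 8 members with normo-Migs (27.2% of all genes), 7 of them higher (16.5%). They were met by 7 with hypo-Migs (28.3%, and 17.5% for higher), and for CD147KO-Migs by 7 (27.5%, and 16.6% for higher). The 7 that were higher were the same genes in all 3 comparisons: ATP5F1E, ATP5MD, COX6B2, COX6C, COX7A2L, NDUFA4L2 and UQCRB. Genes near some of these were higher too, as given with the neighbouring genes. With a trend with gene length and level removed from the fold changes, 18, 22 and 19 members met the criteria. That setting kept the adjusted p of the uncorrected reads, so the corrected values themselves were not tested. By fold alone on log2(FPKM + 1), 3, 4 and 2 members passed 2-fold. Among members with a mean of at least 500 reads, 5 of 73 were higher by the criteria in each comparison, beside 732, 760 and 758 of 9112 genes at that level. In the same order, 75.3%, 71.2% and 75.3% of these members and 44.2%, 43.5% and 43.3% of these genes were higher beyond counting error. All 3 comparisons use the same PBS library, so they are not independent.

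**Figure D2:**
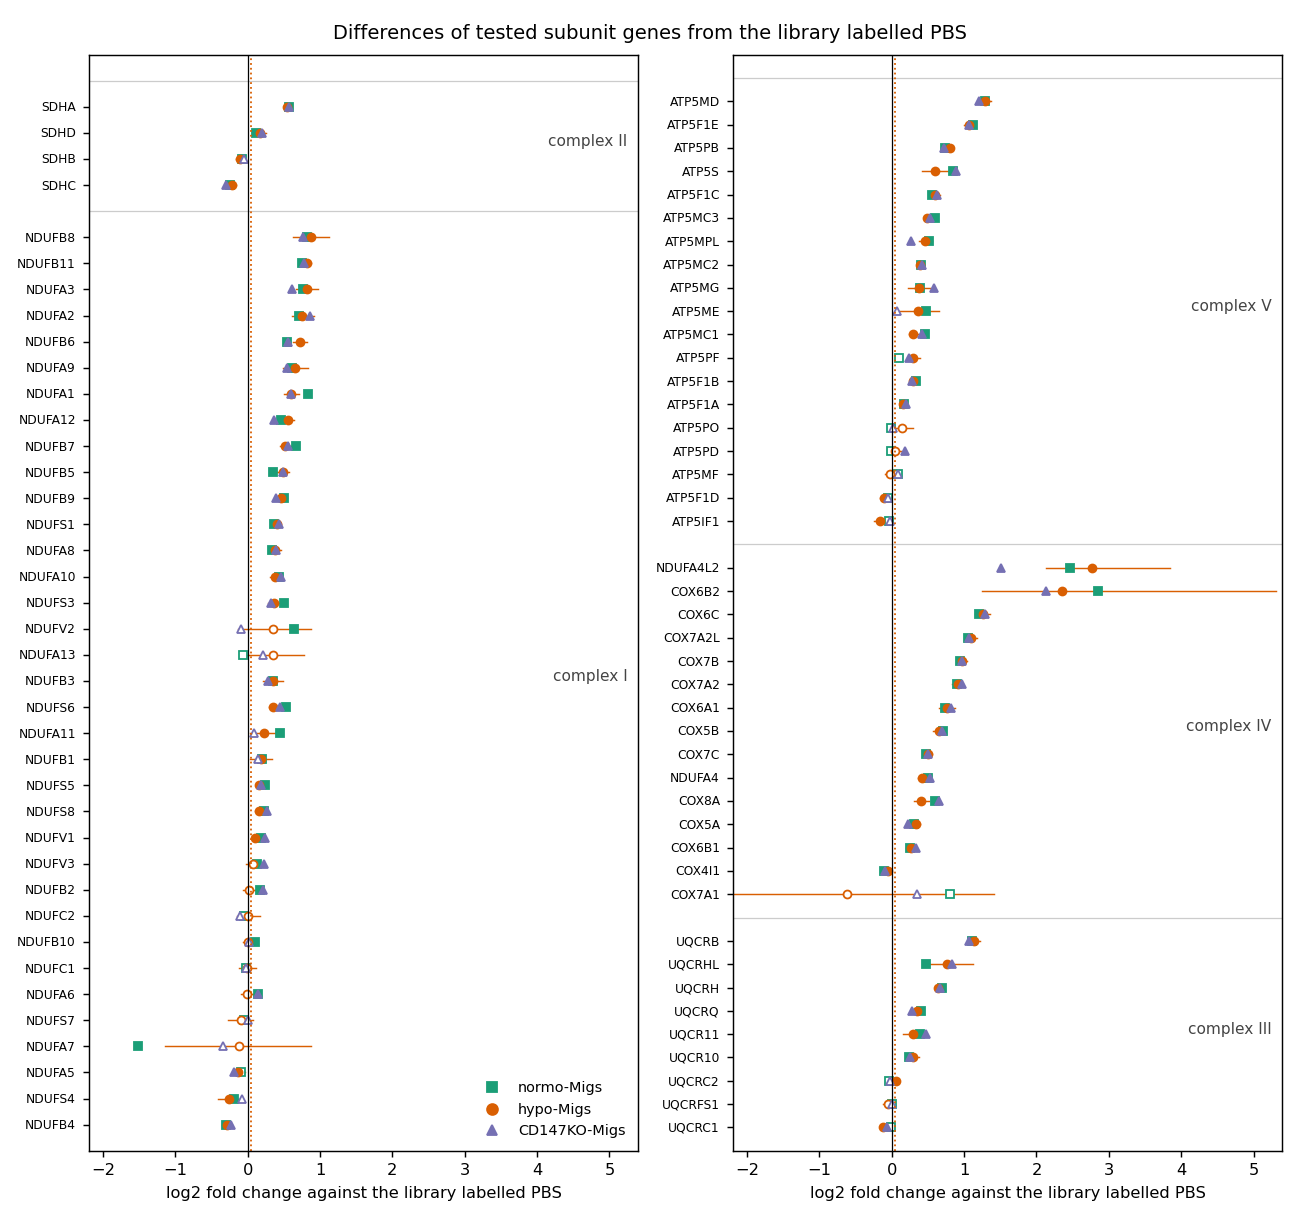
Log2 fold change of 82 of the 83 tested members against the library labelled PBS, by complex and ordered by hypo-Migs. Filled symbols passed an adjusted p of 0.05 and open ones did not, the horizontal lines are exact 95% intervals for hypo-Migs that cover counting error only, 1 of them running past the axis, and the dotted line is the median of all genes tested with hypo-Migs (0.04). For most members the 3 Mig libraries lie close together and to the right of 0.

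Complex IV, cytochrome c oxidase, had the highest median of the 5 complexes in each comparison with PBS. Its 15 tested members had median log2 fold changes of 0.74, 0.65 and 0.69 in the same order of Mig libraries, and 13 were higher beyond counting error in each. COX6C, a small membrane subunit, had 1113 reads with PBS and 2541, 3092 and 2756 with Migs. The 3 Mig libraries lay close together and far above PBS, at log2 fold changes of 1.21 (exact 95% interval 1.11 to 1.31), 1.25 (1.16 to 1.36) and 1.29 (1.19 to 1.39). COX7A2L, which holds complexes III and IV together in supercomplexes, had 1949, 3983, 4842 and 4130 reads and log2 fold changes of 1.05, 1.09 and 1.06. COX7B, an accessory subunit encoded on the X chromosome, had 2390, 4552, 5443 and 4774 reads and stayed just under the criteria at 0.95, 0.97 and 0.98.

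The other general subunits of complex IV followed in the same direction to a lesser degree. COX7A2, the form of subunit 7A found in most tissues, had log2 fold changes of 0.91, 0.91 and 0.97, COX6A1 had 0.74, 0.76 and 0.82, and COX5B, which binds zinc, had 0.70, 0.65 and 0.69. COX8A had 1350, 2009, 2083 and 2159 reads and 0.59, 0.41 and 0.66, and COX7C had 0.47, 0.50 and 0.50. NDUFA4, first described with complex I and later found in complex IV, had 0.51, 0.42 and 0.53, and COX5A and COX6B1 had 0.22 to 0.33. COX4I1, the main form of subunit 4 and an early step of assembly, was the exception, with 9662, 8825, 10812 and 9147 reads and log2 fold changes of -0.11, -0.06 and -0.10. These small falls passed an adjusted p of 0.05 and turned to between 0.04 and 0.15 when a trend with gene length and level was removed, so their direction depends on that choice.

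Isoforms of complex IV that belong to other tissues were scarcely present. COX4I2, a form of subunit 4 found in lung and raised by low oxygen, and COX6A2, the form of muscle and heart, had 0 reads in every library, which allows up to 3 reads, or 0.0745 to 0.0885 CPM. COX8C had 0, 2, 0 and 2 reads and COX7B2 had 2, 0, 0 and 0. COX7A1, the muscle and heart form of subunit 7A, had 5, 10, 3 and 7 reads, which did not differ beyond counting error in any pair. COX6B2, a form known from testis, had 3 reads with PBS and 33, 27 and 20 with Migs. These counts are small, and the ratios to PBS were 11.1 (3.50 to 56.8), 7.74 (2.38 to 39.9) and 6.57 (1.95 to 34.5) with exact 95% intervals. COX6B2 shared 30.9% of its exon bases with AC020922.1 and made up 0.105% to 0.972% of the reads of COX6B1 and COX6B2 together.

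Setting aside members that averaged under 50 reads, NDUFA4L2 differed most from PBS. It encodes a paralogue of NDUFA4 that is induced under hypoxia and lowers complex I activity. The gene (chromosome 12, 57234903 to 57240715, minus strand) had 14, 85, 124 and 44 reads in the 4 libraries. Log2 fold changes against PBS were 2.47 (1.8 to 3.55), 2.77 (2.13 to 3.84) and 1.51 (0.74 to 2.61). These fold changes include a prior count of 2, which the intervals leave out. Without it the ratios to PBS, not on the log2 scale, were 6.15, 7.62 and 3.1. Of the reads on NDUFA4 and NDUFA4L2 together, it took 0.325% (0.178% to 0.544%), 1.39% (1.11% to 1.72%), 1.82% (1.52% to 2.17%) and 0.695% (0.505% to 0.932%), exact binomial intervals. Its level stayed between 0.144 and 1.09 FPKM, whereas NDUFA4 lay between 34.9 and 50.02. The coding sequences of both paralogues had 53.3% of bases in common, and 1.2% of the exon bases of NDUFA4L2 were shared with another gene.

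In complex V, 13, 14 and 14 of the 19 tested members were higher beyond counting error and 0, 2 and 0 were lower, with medians of 0.41, 0.36 and 0.27. ATP5MD, a small membrane subunit (known as DAPIT) that helps dimers of the synthase to form rows, had 1398 reads with PBS and 3381, 3957 and 3273 with Migs. Its log2 fold changes of 1.29, 1.28 and 1.21 were the largest of the complex. ATP5F1E, the epsilon subunit of the central stalk, had 2422, 5225, 5898 and 5132 reads and log2 fold changes of 1.13, 1.07 and 1.06. Both genes share exon bases with others, ATP5MD 18.1%, mostly with MIR1307, and ATP5F1E 23.2%, mostly with TUBB1 on the opposite strand.

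The other subunits of the catalytic head differed less. ATP5F1C, the gamma subunit of the stalk, had log2 fold changes of 0.56, 0.60 and 0.63, the catalytic ATP5F1B had 0.34, 0.30 and 0.27, and the alpha subunit ATP5F1A had 0.17, 0.15 and 0.19. ATP5F1D, the delta subunit, had 4793, 4584, 5185 and 4671 reads and -0.05, -0.10 and -0.06, of which only the middle value, with hypo-Migs, passed. The peripheral stalk was as uneven, with ATP5PB at 0.73, 0.81 and 0.72 and ATP5PO at -0.01, 0.15 and 0.01. ATP5S, a factor associated with the synthase rather than a subunit of its core, had 353, 627, 625 and 667 reads and 0.84, 0.60 and 0.89. ATP5IF1, the inhibitor that stops the synthase from splitting ATP, had 2972, 2868, 3074 and 2954 reads and -0.03, -0.17 and -0.03. Only the value with hypo-Migs passed, and it became 0.27 when the trend with gene length and level was removed. ATP5MGL had 2 reads with PBS and 0 elsewhere, and the readthrough genes ATP5MF-PTCD1 and NDUFC2-KCTD14 had 3 reads or fewer in every library.

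In complex I, 28, 22 and 24 of 36 members were higher beyond counting error and 3, 3 and 2 were lower. The 7 core subunits, which carry the electrons, had medians of 0.23, 0.16 and 0.25, and the 29 accessory ones had 0.35, 0.35 and 0.28. NDUFB11 had 3439, 5687, 7067 and 5986 reads (0.74, 0.82 and 0.78 on the log2 scale), and NDUFA3 had 516, 870, 1059 and 799 (0.77, 0.82 and 0.61). NDUFA2, an accessory subunit of the matrix arm, had 534, 864, 1051 and 988 reads and 0.71, 0.76 and 0.86. NDUFB11 shared 44.9% of its exon bases with RBM10 on the opposite strand. In the core, NDUFS1, the largest subunit, had 4200, 5332, 6464 and 5769 reads and log2 fold changes of 0.36, 0.40 and 0.44.

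A few accessory subunits of complex I were lower with Migs. NDUFB4 had 3361 reads with PBS and 2702, 3203 and 2908 with Migs, the largest fall with normo-Migs and hypo-Migs once members averaging under 50 reads are set aside. Its log2 fold changes were -0.30 (-0.37 to -0.22), -0.29 (-0.36 to -0.22) and -0.23 (-0.30 to -0.16). NDUFS4, mutated in Leigh syndrome, had 825, 716, 799 and 793 reads and -0.19, -0.26 and -0.08, the last not passing. NDUFA5 had 1957, 1809, 2083 and 1742 reads and -0.09, -0.13 and -0.19, the first not passing. After removal of the trend with gene length and level, NDUFB4 stood at 0.13, 0.21 and 0.23 and the values of NDUFS4 that had passed at 0.12 and 0.06, so the direction of these falls depends on the scale. The values of NDUFA5 that had passed stayed below 0, at -0.06 and -0.12. NDUFA7 met the criteria with normo-Migs at -1.51 (-3.61 to -0.35), which rests on 18 against 5 reads. The interval leaves out the prior count that the fold change includes, and the ratio without it was 0.281.

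Complex II split by subunit. SDHA had 13245 reads with PBS and 19463, 22442 and 19979 with Migs, at log2 fold changes of 0.57, 0.54 and 0.57. SDHD, a membrane anchor, had 2277, 2428, 2980 and 2649 reads and was higher by 0.11, 0.17 and 0.20. SDHC, the other anchor, had 5704, 4730, 5703 and 4721 reads and -0.25, -0.22 and -0.29, the largest fall with CD147KO-Migs that passed. SDHB, the iron-sulphur subunit, had 3641, 3417, 3943 and 3571 reads and -0.07, -0.10 and -0.05, the last not passing, and the passing values became 0.28 and 0.32 without the trend with length and level. The medians of the complex, 0.02, 0.03 and 0.07, were near those of all genes. SDHA has 3 named pseudogenes, on which 767 to 930 reads were counted, 4.23% of the reads of gene and pseudogenes together. The shares were higher only for COX6A1 (6.47%) and NDUFV2 (44.88%).

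In complex III, 6, 7 and 6 of 9 members were higher beyond counting error and 0, 1 and 1 were lower. UQCRB, which binds ubiquinone and takes part in assembly, had 1569 reads with PBS and 3353, 4008 and 3327 with Migs, at log2 fold changes of 1.11, 1.13 and 1.06. UQCRH had 0.69, 0.64 and 0.67. The small subunits UQCRQ, UQCR10 and UQCR11 lay between 0.23 and 0.48. The 3 large subunits moved little: UQCRC1 and UQCRC2, the core proteins, had 9287, 9120, 9968 and 8971 reads and 8227, 7926, 9963 and 8233 reads, and UQCRFS1, the Rieske iron-sulphur protein, had 3156, 3135, 3548 and 3221. UQCRFS1 passed in no comparison with PBS, UQCRC1 was lower with hypo-Migs (-0.12) and CD147KO-Migs (-0.07), and UQCRC2 was higher with hypo-Migs alone (0.06).

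The members showed small differences among the 3 Mig libraries, with more of them lower than higher beyond counting error with hypo-Migs. Protein complexes outside respiration, described below, leaned the same way against normo-Migs. Their range of log2 CPM over these libraries was under 0.2 in 66 of the 73 members with a mean of at least 500 reads, or a median range of 0.10, while 78.0% of all 9112 genes at that level were under 0.2, with a median of 0.13. Between hypo-Migs and normo-Migs, 0 members met the criteria (4.90% of all genes), 7 were higher beyond counting error (11.5%) and 19 lower (13.2%). Between hypo-Migs and CD147KO-Migs, 1 met the criteria (5.04%), 9 were higher (12.4%) and 18 lower (12.7%). Between normo-Migs and CD147KO-Migs, 0 met the criteria (4.91%), 16 were higher (13.2%) and 6 lower (11.5%). In percent of members, the 3 pairs had 8.4, 10.8 and 19.3 higher and 22.9, 21.7 and 7.2 lower. At a mean of at least 500 reads, 26.0% of members were lower with hypo-Migs than with normo-Migs, against 19.7% of genes. Against CD147KO-Migs these were 24.7% and 16.5%. The shares higher with hypo-Migs at that level were 9.6% of members and 13.9% of genes against normo-Migs, and 11.0% and 16.5% against CD147KO-Migs. Between normo-Migs and CD147KO-Migs, 16.4% of these members and 20.1% of these genes were higher, and 8.2% and 13.7% were lower. The larger share of members higher in that pair was thus not seen at matched read levels. Median log2 fold changes of the members were -0.02, -0.02 and -0.00 in the 3 pairs, beside 0.00 for all genes in each. Among members with a mean of at least 50 reads, the largest rise between hypo-Migs and normo-Migs was that of NDUFA13 (0.42, not passing), and the largest fall that passed was that of ATP5S (-0.24).

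NDUFA4L2 was the member that met the criteria between hypo-Migs and CD147KO-Migs, with 124 against 44 reads, a log2 fold change of 1.26 (0.79 to 1.83) and an adjusted p of 2.49e-06 by the exact binomial test. The same gene was higher with normo-Migs than with CD147KO-Migs, with 85 against 44 reads and 0.96 (0.45 to 1.55), and its difference between hypo-Migs and normo-Migs was 0.30 (-0.10 to 0.72), which did not pass. The CD147KO-Migs library was thus the low one of the 3, and all 3 were above PBS. With an assumed coefficient of variation of 0.4 between cultures the difference between hypo-Migs and CD147KO-Migs no longer passed. On the log2(FPKM + 1) scale, which compresses low levels, it did not reach a log2 fold change of 1.

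Smaller differences of abundant members among Mig libraries were of a few kinds. COX8A was lower with hypo-Migs than with normo-Migs (-0.18) and CD147KO-Migs (-0.25), as were ATP5IF1 (-0.14 and -0.14), ATP5MC1 (-0.16 and -0.11), NDUFS6 (-0.19 and -0.10) and ATP5S (-0.24 and -0.29). NDUFB6 was higher with hypo-Migs in both comparisons (0.19 and 0.17). NDUFA1, an X-linked accessory subunit, was highest with normo-Migs, at 69.8 CPM against 59.7 in each of the other Mig libraries. ATP5PD and ATP5MG were highest with CD147KO-Migs, at 62.2 and 27.7 CPM against 54.3 to 56.5 and 24.1 to 24.2. Both comparisons with hypo-Migs share that library, and none of these values passed with an assumed coefficient of variation of 0.1 between cultures.

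**Figure D3:**
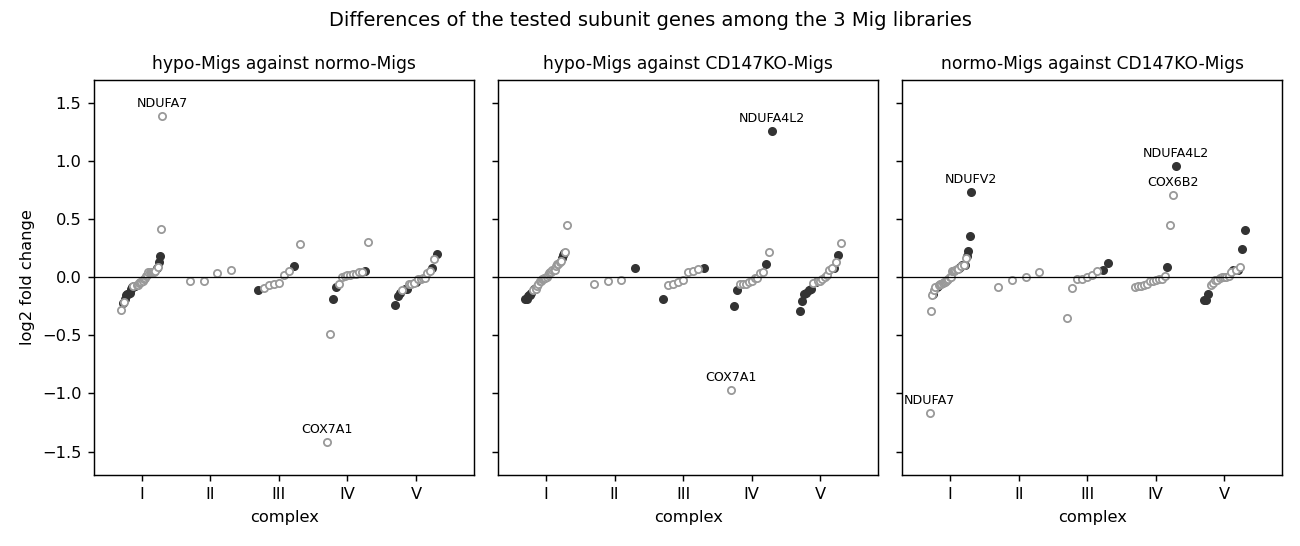
Log2 fold change of the 83 tested members in each pair of Mig libraries, by complex, with filled points for an adjusted p of 0.05 or less and open points for the rest. Most points lie near 0, and the named points at the edges belong to genes with few reads, among which NDUFA4L2 (1.26 between hypo-Migs and CD147KO-Migs) and NDUFV2 (0.73 between normo-Migs and CD147KO-Migs, whose counts are uncertain) passed.

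Differences from PBS went along with the place of a gene in the genome. For each tested member, the median log2 fold change of the other protein-coding genes within 10 Mb with a mean of at least 50 reads was taken. With hypo-Migs these medians ran from -0.62 around COX4I1 to 1.25 around COX7B, whose own value was 0.97. Across the 83 members, which share libraries and in part neighbours, Pearson's r between a member and its neighbours was 0.40, 0.49 and 0.54 and Spearman's rho 0.59, 0.65 and 0.60 with normo-Migs, hypo-Migs and CD147KO-Migs. Whole chromosomes showed it too, with medians of other genes of -0.51 on chromosome 16 and 0.45 on chromosome 10 for hypo-Migs. The member exceeded its neighbours in 75, 71 and 70 of 83 cases, by a median of 0.32, 0.27 and 0.32 on the log2 scale. Among members that met the criteria, with hypo-Migs, UQCRB (1.13) had neighbours at 0.63 and COX7A2L (1.09) at 0.61. For COX6C (1.25) they stood at 0.54 and for ATP5MD (1.28) at 0.52. Neighbours stood at 0.25 around ATP5F1E (1.07), 0.04 around NDUFA4L2 (2.77) and -0.15 around COX6B2 (2.35). The part of genomic place in these rises was not tested. Of the 3 members that were lower in every comparison with PBS, NDUFB4 (-0.29) and COX4I1 (-0.06) lay above their neighbours (-0.47 and -0.62) with hypo-Migs, and SDHC (-0.22) lay below its own (-0.12). UQCRC1 (-0.12 against -0.10) and ATP5F1D (-0.10 against -0.02) were also below theirs.

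**Figure D4:**
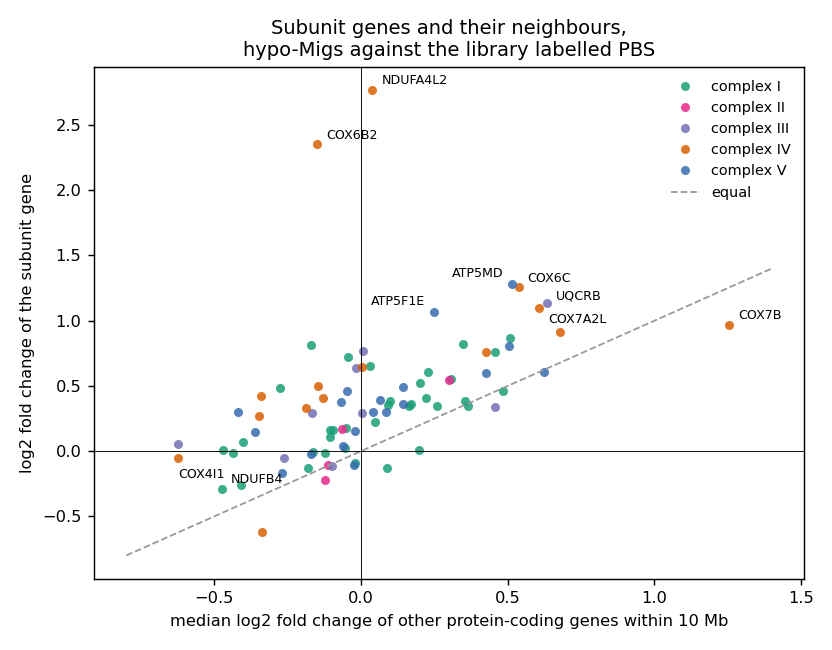
Log2 fold change of each of the 83 tested members with hypo-Migs against the library labelled PBS, plotted against the median of the other protein-coding genes within 10 Mb, by complex, with a dashed line where both are equal. Points rise from left to right and 71 of 83 lie above the line, and NDUFA4L2 and COX6B2 stand far above it.

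Other genes of mitochondrial respiration did not all move with the subunits. The counts against PBS in this and the following lists stand beside the shares of all genes tested. These were 37.0%, 37.7% and 36.5% higher beyond counting error and 32.7%, 33.6% and 33.4% lower with normo-Migs, hypo-Migs and CD147KO-Migs. The 13 subunits encoded in mitochondrial DNA had medians of 0.45, 0.50 and 0.48 against PBS, and 11, 12 and 12 were higher beyond counting error, with MT-ND1 (24993, 73603, 85795 and 73021 reads) the highest at 1.58, 1.56 and 1.53 and MT-ND4L the lowest at 0.01, 0.00 and -0.08, of which the last passed. Of the subunits whose symbols the rule does not take, CYC1, the cytochrome of complex III, had 9109, 10032, 11081 and 9785 reads (0.16, 0.06 and 0.08). NDUFAB1, the acyl carrier protein that is also part of complex I, had 3424, 2133, 2379 and 2013 reads and log2 fold changes of -0.66, -0.74 and -0.79. Neighbouring genes were compared for members alone, so the part of genomic place in these values was not tested. CYCS, cytochrome c itself, had 8161, 9018, 10133 and 8688 reads.

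Assembly factors build the complexes without staying in them, and those of complexes I to IV were spread around 0. Their counts of calls are to be read beside the shares of all genes just given. Of 18 factors of complex I, 7, 7 and 8 were higher beyond counting error and 8, 9 and 7 lower, with NDUFAF7 at 0.91, 1.14 and 0.92 and TIMMDC1 at -0.69, -0.72 and -0.74. Of 10 factors of complexes II and III, 4, 3 and 4 were higher and 3 lower in each comparison, and of 25 factors of complex IV, 11, 12 and 11 were higher and 10, 9 and 8 lower. SURF1, mutated in Leigh syndrome, was at 1.00, 0.79 and 0.81, and COX20 had 95, 34, 36 and 35 reads. Of 5 factors of complex V, 3, 4 and 2 were higher and 1 lower in each, with medians of 0.35, 0.40 and 0.42.

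Lists of metabolism and of regulators likewise had medians near or below 0. Of 14 enzymes of the TCA cycle, 5 were higher in each comparison and 7, 9 and 8 lower, with medians of -0.14, -0.25 and -0.20 and SUCLG2 at -1.02, -0.82 and -0.73. Of 14 genes of cytochrome c and ubiquinone synthesis, 5, 6 and 6 were higher and 6, 7 and 7 lower. Of 17 regulators of mitochondrial biogenesis, 7, 7 and 9 were higher and 7 lower in each. Among these, the coactivator PPARGC1A had 399, 928, 1286 and 1063 reads and log2 fold changes of 1.23, 1.47 and 1.39, and its relative PPARGC1B had 518, 1174, 1260 and 1113. TFAM, which packs and transcribes mitochondrial DNA, was at 0.44, 0.49 and 0.50, whereas NRF1 was at -0.20, -0.19 and -0.17, GABPA at -0.43, -0.20 and -0.20, and ESRRA at 0.13, -0.03 and 0.08.

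Of 9 tested genes of respiration known to respond to hypoxia, 3 were higher in each comparison with PBS and 5, 4 and 6 lower. Their medians against PBS were -0.213, -0.015 and -0.278. The list was not split by the direction of the known response, so its counts cannot show whether such a response occurred. PDK1, which keeps pyruvate from the TCA cycle, had 2061, 859, 1145 and 857 reads, and its level with hypo-Migs was higher than with normo-Migs by 0.18 and than with CD147KO-Migs by 0.22. BNIP3 had 4649, 3920, 5352 and 3889 reads and the same differences were 0.21 and 0.26. Set against normo-Migs, the hypo-Migs library had 7 of the 9 values above 0. In that pair 3 were higher beyond counting error (PDK1, BNIP3 and TMEM126B) and 1 lower (LONP1, -0.07), against 11.5% and 13.2% of all genes. Set against CD147KO-Migs, the hypo-Migs library had 4 higher (12.4% of all genes) and 0 lower (12.7%). NDUFA4L2 is in this list as well as among the members, and PDK1, BNIP3 and NDUFA4L2 were each highest with hypo-Migs among the 3 Mig libraries, although the difference of NDUFA4L2 from normo-Migs did not pass.

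Protein complexes outside respiration gave a scale for the shift. The shares of all genes given with the lists of respiration apply to these counts too. The 83 tested cytosolic ribosomal proteins had medians of 0.42, 0.35 and 0.32 against PBS, and 69, 65 and 67 of them were higher beyond counting error, beside medians of 0.41, 0.35 and 0.33 for the members. The 78 mitochondrial ribosomal proteins had medians of 0.03, -0.05 and -0.04, with 33, 28 and 25 higher and 22, 31 and 33 lower. The 41 tested proteasome subunits had medians of -0.08, -0.18 and -0.21, with 14, 14 and 13 higher and 23, 23 and 22 lower. Between hypo-Migs and normo-Migs, 47.0%, 29.5% and 48.8% of the cytosolic ribosomal, mitochondrial ribosomal and proteasome genes were lower beyond counting error. In that pair 2.4%, 5.1% and 2.4% were higher. The members had 22.9% lower and 8.4% higher there, beside 13.2% and 11.5% of all genes. When a trend with gene length and mean level over all genes was removed, the medians of the members were 0.62, 0.64 and 0.62.

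**Figure D5:**
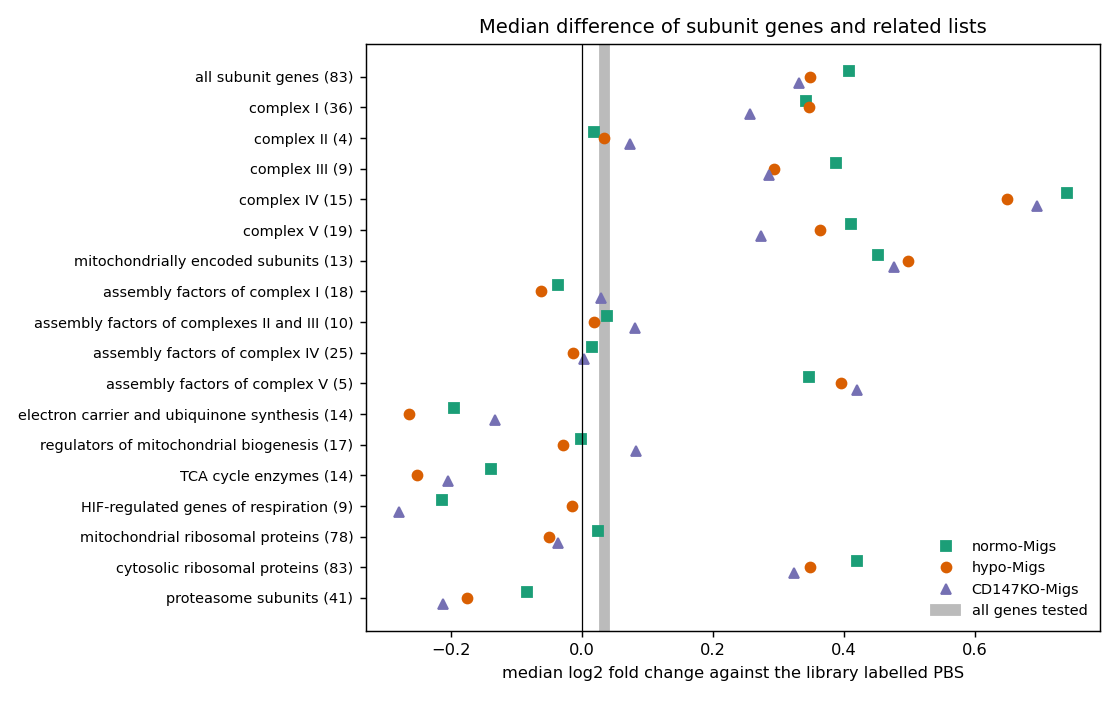
Median log2 fold change against the library labelled PBS of all tested members, of each complex and of related gene lists (number of tested genes in parentheses), for the 3 Mig libraries, with the medians of all genes tested as a grey band. Complex IV lies farthest to the right at 0.65 to 0.74, complex II lies at 0.02 to 0.07, and the cytosolic ribosomal proteins lie where all subunit genes do.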

How the data were processed

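RNA-seq of 4 libraries was analysed, 1 per condition. The authors deposited raw counts of reads per gene, not normalized, and FPKM values, in which the authors had scaled them by gene length and library size. The submitters' processing notes name CASAVA 1.8, fastp, HISAT2 2.0.5, featureCounts 1.5.0-p3 and the genome build hg38. Strand handling is not given in the sources used here. The methods describe poly-T beads and random hexamers, the labels a SMARTer kit. All gene lengths of the members equalled the exon unions of GENCODE release 29, and genes were joined by identifier.

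The 19895 genes for which some library held 10 reads or more were scaled by TMM, with a prior count of 2, and compared pairwise with edgeR 4.0.16 (R 4.3.3) by the two-sided exact binomial test with Benjamini-Hochberg adjustment over all of them, since quasi-likelihood tests have no residual degrees of freedom here. Intervals of ratios and shares are exact at 95%, cover counting error only, and treat reads without molecular identifiers as independent. Intervals of fold changes were taken from reads without the prior count, whereas the log2 fold changes include it. For genes with few reads the value and its interval thus belong to different estimates. A count of 0 allows up to 3 reads. All libraries carry the same batch label. Python 3.11.15 with pandas 2.3.3, scipy 1.17.1 and matplotlib 3.10.9 was used for the rest. The fit was run on simulated counts with planted changes and counting error only, so that check has no bearing on the spread between cultures.

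The members and lists were chosen with earlier results of these data known, so a list is described by counts and medians, with no test. Named were members that met the criteria in any pair, the 3 largest rises and falls of each pair among members with a mean of at least 50 reads, the highest and lowest member of each complex, isoform families, complex II, ATP5IF1 and up to 2 genes per direction of other lists. Members named beyond this rule were chosen after their values were seen. Other settings changed the scaling, filter, prior count, unit, test, length correction and members, and DESeq2 1.42.0 was one of them. A further 3 were added after seeing the data, namely members relative to neighbours within 10 Mb, members sharing at most 10% of exon bases, and members with a mean of at least 500 reads. One further member is not reported by name here, and it is kept in the counts, the medians and the unlabelled points of figures.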

Additional observations from a re-analysis of the deposited data

How the results depend on the processing

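The medians of the members kept their sign in the comparisons with PBS under every alternative run. On log2(FPKM + 1), the median was 0.32 with normo-Migs. With the trend with length and level removed, the medians against PBS were 0.62, 0.64 and 0.62 with normo-Migs, hypo-Migs and CD147KO-Migs, 18, 22 and 19 members met the criteria, and 2, 3 and 2 were lower beyond counting error. That alternative reversed 11 falls: NDUFB4 to 0.13, 0.21 and 0.23, COX4I1 to 0.042, 0.15 and 0.10, NDUFS4 to 0.12 and 0.063, SDHB to 0.28 and 0.32, and ATP5IF1 to 0.27 with hypo-Migs. Relative to neighbours within 10 Mb the medians were 0.32 with normo-Migs and 0.27 with hypo-Migs. By log2(FPKM + 1) and fold alone, 3, 4 and 2 members passed 2-fold against PBS and 0 between hypo-Migs and CD147KO-Migs. These causes were not tested.

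The counts of calls rest on the assumed spread between cultures. With a coefficient of variation of 0.1, 31, 29 and 31 members were higher than PBS and 1, 0 and 0 lower, 1 was higher with hypo-Migs than with CD147KO-Migs, and 0 differed otherwise between Mig libraries. With 0.4, 1 member was higher with hypo-Migs than with PBS, which also met the criteria, and 0 passed in any other pair or direction. With DESeq2 over the 4 libraries as replicates, 0 members passed in any pair, and 0 of all genes passed either. At an unadjusted p under 0.05 there were 0 members in any pair, beside 1246, 1269 and 1296 of all genes against PBS and 1 to 7 between Mig libraries, where the other tools gave the counts above and in the report. With total reads on genes, 10 members were lower with normo-Migs than with PBS, and 10 were higher and 13 lower between normo-Migs and CD147KO-Migs. Without members that share over 10% of their exon bases, 50 remained tested, of which 4 met the criteria in each comparison with PBS, 37, 34 and 35 were higher, 4 were higher with hypo-Migs than with normo-Migs, 11 lower with hypo-Migs than with CD147KO-Migs, and 9 higher and 2 lower with normo-Migs than with CD147KO-Migs. With a mean of at least 500 reads, 5 met the criteria with normo-Migs and 0 between hypo-Migs and CD147KO-Migs. Fewer members were tested in these last settings. The fold-alone setting gives no count beyond counting error. No paired analysis was possible because each condition had 1 library, which also leaves no replicate to omit. At these depths members under about 100 reads, among them NDUFA4L2, NDUFA7, NDUFV2 and COX6B2, have wide intervals.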
